A study of Caenorhabditis elegans with 16 samples.

Results

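The comparison set embryos of a Caenorhabditis elegans double mutant, which lacks normal copies of a pair of decapping co-factors, against embryos of the wild type, gene by gene. The double mutant had the genotype edc-3(ok1427); edc-4(qe49) and is strain FD146 by the sample labels, while the series' design text gives it as FD135, the strain of the edc-4 single mutant. The single mutants were edc-3(ok1427), strain RB1311, and edc-4(qe49), strain FD135. Wild type (WT) was strain N2. All genotypes were raised side by side without treatment on bacterial lawns at 16 °C, and mixed-stage embryos were released from gravid adults by bleaching. The sample labels number 4 independent biological replicates of each genotype from 2 to 5, so the comparison used 8 of 16 libraries, chosen by genotype label, and the single mutants were used for the spread and for side-by-side values. Each genotype was 1 strain. A difference in strain background and an effect of the named alleles can therefore not be told apart, and the molecular nature of ok1427 and qe49 is not given in the sources used here.

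Most mRNAs are destroyed after their poly(A) tail is shortened, when the decapping enzyme DCAP-2 with its partner DCAP-1 removes the 5′ cap and exposes the body of the message to the exonuclease XRN-1. EDC-3 and EDC-4 belong to the enhancers of decapping, scaffold proteins that bring the enzyme together with its activators in cytoplasmic granules called processing bodies. Early embryos of this worm start out with maternal mRNA, much of it made in the oocyte, and clear it while the zygotic genome is switched on. The series was set up to ask how loss of EDC-3 and EDC-4 changes the embryonic transcriptome.

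Libraries held 35.8 to 44.1 M counts in the double mutant and 40.5 to 48.7 M in WT, and ribosomal RNA took 13.9 to 19.97% of the counts in the double mutant and 12.6 to 18.1% in WT. Mixed-stage batches can differ in age. A stage score was therefore taken for each library as the mean log2 CPM, counts scaled to library size, of 55 early zygotic genes minus that of 32 muscle genes. Early zygotic genes mark younger embryos and muscle genes older ones. The score was -4.09, -4.40, -2.77 and -4.45 in double mutant libraries 2, 3, 4 and 5, against -4.69, -4.10, -5.40 and -4.78 in WT libraries 2, 3, 4 and 5. The groups overlapped, with a difference of 0.82 (exact two-sided permutation test, p = 0.114). The libraries numbered 4 stood at the ends, and without them the difference was 0.21 (exact p = 0.4, where 3 against 3 allows no p under 0.1). Leaving out the highest double mutant score and the lowest WT score could only shrink the difference. It is therefore no independent check on stage. Results that touch this split are given below also with the score as a covariate and without both libraries numbered 4. Fewer cells of a type and less RNA per cell cannot be told apart in these bulk samples. All levels below are CPM scaled between libraries by TMM factors, they are listed in the order of replicates 2, 3, 4 and 5, and they compare libraries for 1 gene, since counts were not divided by gene length.

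The targeted genes were looked at first. edc-4 (WBGene00021551, chromosome I, 3340212 to 3349914, WBcel235) had 27.1, 30.98, 20.4 and 25.96 CPM in the double mutant, against 183, 167, 139 and 183 CPM in WT. Every double mutant library lay far below every WT library. The level was 15.5% of WT, a log2 fold change of -2.69 ± 0.14 (SE, edgeR adjusted p = 1.58e-09), and 4 against 4 libraries gave the smallest p an exact two-sided permutation test of the log2 level allows, 0.0286. The edc-4 single mutant, which carries the same allele, had 31.9 ± 2.62 CPM and the edc-3 single mutant 176 ± 22.8 CPM (SD, n = 4 each).

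edc-3 (WBGene00011036, chromosome I, 8602125 to 8605162) had 69.4, 65.0, 82.5 and 74.3 CPM in the double mutant, against 90.4, 97.8, 70.8 and 82.4 CPM in WT. The groups overlapped, since double mutant library 4 was above WT libraries 4 and 5. The log2 fold change was -0.23 ± 0.13 (adjusted p = 0.471 by edgeR), and the exact permutation test gave p = 0.143. With the stage score as a covariate it was -0.41 and past the threshold (edgeR adjusted p = 0.00808), while without the libraries numbered 4 it was -0.38 (adjusted p = 0.246). The edc-3 mutant had 62.3 ± 5.55 CPM and the edc-4 mutant 92.5 ± 16.3 CPM (SD, n = 4 each). Both genotypes with edc-3(ok1427) thus averaged below the others, but the edc-3 mutant did not differ from WT past the threshold (edgeR adjusted p = 0.676). Counts over the whole gene do not show which part of the transcript is left, so they check the edc-3 label only weakly. The gene lmd-1 nearby, described below, separated the libraries that carry edc-3(ok1427) from the others without overlap.

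**Figure D1:**
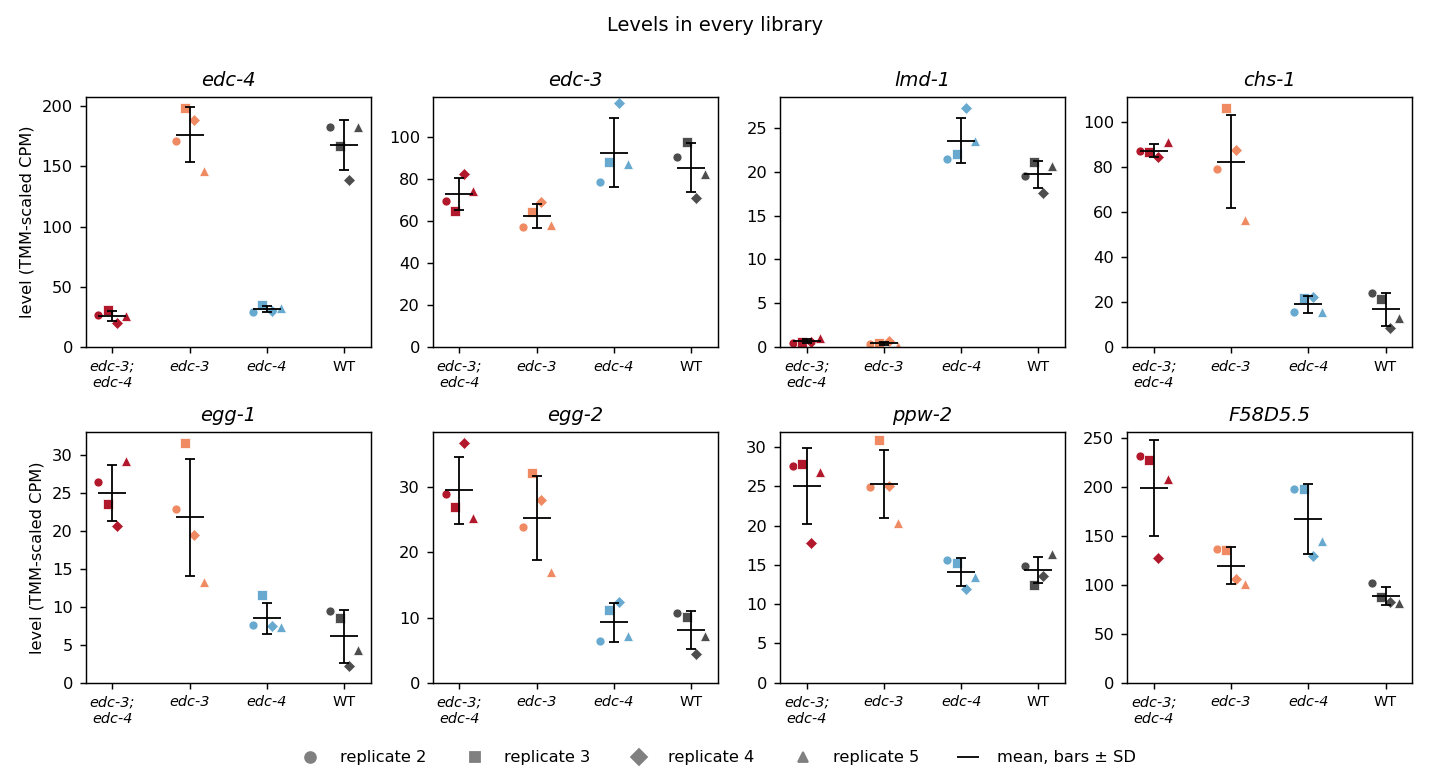
Levels of 8 genes in every library, in TMM-scaled CPM on linear axes that start at 0, with the double mutant, the edc-3 mutant, the edc-4 mutant and WT from left to right. Marker shapes show replicates 2 to 5, lines the mean and bars the SD over 4 libraries. edc-4 is low in both genotypes with edc-4(qe49), and lmd-1, chs-1, egg-1, egg-2 and ppw-2 each have double mutant levels close to those of the edc-3 mutant, while F58D5.5 is highest in the double mutant on average.

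Across the transcriptome few genes passed the main test, which does not show that the others were equal. Of 16880 genes tested, 35 (0.207%) passed an adjusted p of 0.05 in edgeR's quasi-likelihood test, 20 higher (0.118%) and 15 lower (0.0889%) in the double mutant. They included genes of the eggshell and oocyte surface, edc-4 itself, an Argonaute, and several groups of neighbouring genes on chromosomes I and II. At an unadjusted p under 0.05 there were 957 higher (5.67%) and 976 lower genes (5.78%). Of all tested genes, 8235 (48.8%) had a positive log2 fold change. All 35 called genes had libraries that did not overlap between the double mutant and WT, as did 1255 (7.43%) of all tested genes. The absolute log2 fold change of the called genes ran between 0.54 and 6.15, leaving out F46C5.7, which had no count in WT and whose fitted value is no bound. Their median with F46C5.7 at its bound, given below, was 1.35, beside a median of 0.21 over all tested genes, whose 99th percentile was 1.13. Of the 35 genes, 29 were protein coding, as were 14513 of the 16880 tested genes. In level, 22 of the 35 averaged at least 5 CPM over the 8 libraries and 8 averaged under 1 CPM.

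Chromosome II held 14 of the called genes, 4 higher and 10 lower (0.483% of its tested genes). All 14 lay in a group of 4 and a group of 10 neighbouring genes, described below, whose members are not independent. Chromosome I held 11, 8 higher and 3 lower (0.429%), where 0.207% of all tested genes were called. Chromosome III had 4 (0.164%), V had 3 (0.0909%), IV had 2 (0.0700%) and X had 1 (0.0383%). Of the 35 genes, 8 overlap another annotated gene on the same strand and 14 one on the other strand, where the counting may have split or shared reads. When each of the 8 libraries was left out in turn, 17 to 29 genes were called, and 17 of the 35 were called in all 8 of those fits. The lowest count came without double mutant library 2. DESeq2 called 113 genes, 34 of them among the 35. The fit with the stage covariate called 108 (0.64%), with all 35 among them. A fit of the 8 double mutant and WT libraries alone called 28 of 15970 genes (0.175%), and 25 of the 35 passed there. Without the libraries numbered 4, 26 of the 35 passed. Only 13 of the 35 passed in all 18 alternative fits. Against the same WT libraries, 16 genes were higher (0.0948%) and 8 lower (0.0474%) in the edc-3 mutant, and 12 were higher and 12 lower (0.0711% each) in the edc-4 mutant.

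**Figure D2:**
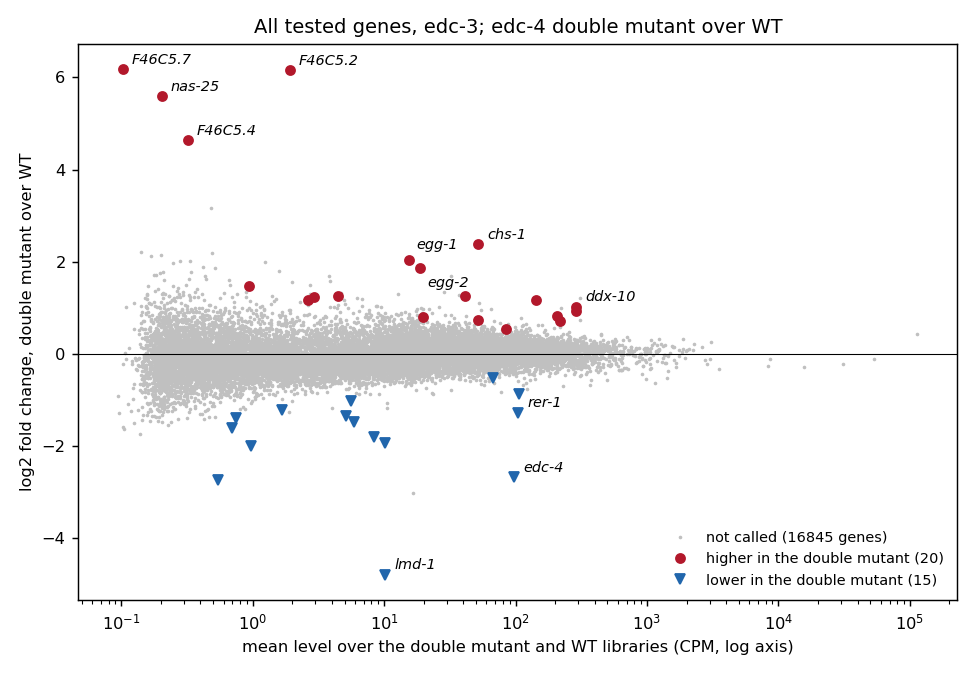
Log2 fold change of the double mutant over WT for all 16880 tested genes against their mean level over the 8 libraries in CPM on a log axis. Red circles are the 20 genes higher and blue triangles the 15 genes lower in the double mutant (edgeR adjusted p under 0.05), and grey points are the other genes. Most grey points lie within 1 log2 unit of 0, and the 4 points above 4 log2 units are neighbours on chromosome II.

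The eggshell and oocyte surface gave the largest group of changed genes with a known shared role. Of 23 genes on a list of eggshell, permeability barrier and oocyte surface genes, 21 passed the filter on low counts, and 3 of them rose: chs-1, egg-1 and egg-2. None fell. Of the 21 tested genes, 18 had a positive log2 fold change, with a median of 0.28, beside -0.01 over all tested genes, and 10 had every double mutant library above every WT library, as did 3.48% of all tested genes. With the stage covariate the median was 0.16, and without the libraries numbered 4 it was 0.12.

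chs-1 (WBGene00000496, chromosome I, 7554855 to 7559916) encodes the chitin synthase that builds the chitin layer of the eggshell after fertilization. It had 86.9, 86.5, 84.2 and 91.2 CPM in the double mutant, against 23.9, 21.6, 8.499 and 13.1 CPM in WT. The double mutant libraries lay close together and far above all WT libraries, among which library 4 was lowest. Its level was 5.19-fold that of WT (log2 fold change 2.38 ± 0.26, adjusted p = 9.43e-05 by edgeR) and stayed past the threshold when any 1 library was left out, with log2 fold changes of 2.16 to 2.60. It was 2.22 with the stage covariate and 2.17 without the libraries numbered 4. The edc-3 mutant had 82.4 ± 20.7 CPM and the edc-4 mutant 19.01 ± 3.74 CPM (SD, n = 4 each). chs-1 overlaps T25G3.3 on the same strand.

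EGG-1 and EGG-2 are a pair of similar oocyte surface proteins with LDL-receptor repeats that are needed for sperm to enter the oocyte. egg-1 (chromosome III, 5728180 to 5730159) had 26.5, 23.5, 20.7 and 29.2 CPM in the double mutant, against 9.45, 8.54, 2.15 and 4.30 CPM in WT. egg-2 (chromosome III, 7058527 to 7060583) had 29.01, 27.03, 36.8 and 25.2 CPM in the double mutant, against 10.6, 10.095, 4.34 and 7.20 CPM in WT. For both genes every double mutant library was above every WT library, and WT library 4 was the lowest of all. The log2 fold change was 2.03 ± 0.35 for egg-1 (adjusted p = 0.0126) and 1.87 ± 0.27 for egg-2 (adjusted p = 0.00319, both by edgeR). Without the libraries numbered 4 they were 1.83 and 1.54, still past the threshold. egg-2 passed whichever library was left out, and egg-1 missed it without double mutant library 2 or without WT library 5, with an adjusted p of up to 0.0701. Because the paralogs are alike, the counting could split reads between them, although both moved the same way.

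Other genes of the list had positive values that did not pass the test. rme-2, the yolk receptor of the oocyte, had 58.6, 58.1, 27.8 and 53.3 CPM in the double mutant, against 27.1, 19.5, 5.76 and 9.31 CPM in WT, a log2 fold change of 1.68 ± 0.40 (edgeR adjusted p = 0.153). perm-1, a gene of the permeability barrier, had 6.69, 6.75, 6.22 and 7.27 CPM in the double mutant, against 3.93, 3.44, 1.64 and 1.86 CPM in WT, with 1.31 ± 0.31 (adjusted p = 0.144). In both cases the groups did not overlap, and the spread among the WT libraries was wide. The cytochrome P450 genes cyp-31A2 and cyp-31A3, which act in making the lipid-rich layer of the eggshell, had 1.16 ± 0.25 (adjusted p = 0.0755) and 1.03 ± 0.22 (adjusted p = 0.0753), and as near-identical copies they can share reads. DESeq2 called 7 genes of the list, namely these 4 with chs-1, egg-1 and egg-2, beside 0.669% of all genes. cbd-1, a chitin-binding protein of the outer eggshell layer, had a log2 fold change of 1.21 ± 0.37 (adjusted p = 0.327) with overlapping groups.

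The 13 remaining genes of the list had log2 fold changes of -0.33 to 0.62, 10 of them positive, and none was called. The chondroitin proteoglycan genes cpg-1 and cpg-2 had log2 fold changes of -0.33 ± 0.36 and -0.26 ± 0.40, and mbk-2, a kinase of the oocyte-to-embryo transition, had 0.08 ± 0.11. The genes cav-1 and perm-3, with 0.20 ± 0.12 and 0.24 ± 0.11, had groups that did not overlap but adjusted p-values of 0.484 and 0.423. Sperm and yolk genes were near the limit of detection in both groups. Of 69 sperm genes 19 had no count in any of the 8 libraries, and the 69 genes summed to 2.6 to 4.0 CPM in the double mutant and 2.3 to 2.7 CPM in WT, while the 6 vitellogenin genes summed to 1.5 to 2.7 CPM in the double mutant and 1.6 to 2.4 CPM in WT. The 23 eggshell and oocyte genes summed to 2860 to 3272 CPM in the double mutant and 1975 to 2845 CPM in WT. By library, the list's median log2 deviation from the WT mean was 0.47, 0.38, 0.55 and 0.70 in the double mutant. In WT it was 0.55, 0.50, -0.85 and -0.26, so the groups overlapped, and WT libraries 4 and 5 were lowest. The part of the stage score in the list's median was not tested beyond those fits.

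A second list held 34 maternal regulators of mRNA and of the oocyte-to-embryo transition, such as the RNA-binding proteins that keep maternal messages silent. None passed the test by edgeR or by DESeq2. By edgeR, 4 of the 34 were higher at an unadjusted p under 0.05, as were 5.67% of all tested genes. A positive log2 fold change was seen in 33 of the 34, beside 48.8% of all tested genes, and the list's median was 0.35. With the stage covariate the median was 0.14 and 26 were positive, and without the libraries numbered 4 it was 0.12 and 27 were positive. lin-41, a TRIM-NHL RNA-binding protein of the oocyte, had 50.8, 48.0, 20.3 and 44.1 CPM in the double mutant, against 26.4, 21.2, 7.95 and 9.36 CPM in WT. Double mutant library 4 lay below WT libraries 2 and 3, and the log2 fold change of 1.33 ± 0.38 did not pass (edgeR adjusted p = 0.281). nos-1, a homolog of Drosophila nanos, had 22.1, 19.8, 19.05 and 18.3 CPM in the double mutant, against 14.7, 14.3, 6.13 and 8.47 CPM in WT, so that its groups did not overlap (0.86 ± 0.23, adjusted p = 0.255). The members of highest level, the cyclin genes cyb-3 and cyb-1, had 0.19 and 0.24. The names lin-41 and nos-1 were chosen after their values were seen.

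Among the decapping factors only edc-4 was called. The list had 18 genes, all tested, 15 of them with a positive log2 fold change, with a median of 0.17 that was 0.03 with the stage covariate and 0.04 without the libraries numbered 4. The catalytic subunit gene dcap-2 had 98.6, 97.6, 103 and 98.6 CPM in the double mutant, against 97.9, 90.04, 74.6 and 88.2 CPM in WT (log2 fold change 0.18 ± 0.10, adjusted p = 0.464). The gene of its partner, dcap-1, had 0.05 ± 0.11 and the exonuclease gene xrn-1 had 0.08 ± 0.09. None of these 3 genes was called.

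cgh-1 was the decapping activator with the largest positive value. It encodes the worm's DDX6-family RNA helicase, which binds and stores maternal mRNA in germline and embryo. It had 319, 309, 204 and 354 CPM in the double mutant, against 194, 184, 86.1 and 131 CPM in WT, without overlap. The log2 fold change was 0.99 ± 0.24 (adjusted p = 0.154 by edgeR, 0.0173 by DESeq2). It was 0.99 with the stage covariate and 0.95 without the libraries numbered 4, and passed the threshold in neither of these fits. car-1, the LSM14 homolog that partners CGH-1, had 0.51 ± 0.24 with overlapping groups (edgeR adjusted p = 0.439), and patr-1, the Pat1 homolog, had 0.30 ± 0.14 (adjusted p = 0.435). The names in this paragraph were chosen after their values were seen.

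Other decay pathways showed no called gene. Of 25 genes of deadenylation and the exosome, 9 of nonsense-mediated decay and 10 of the microRNA machinery none passed, with medians of 0.09, 0.08 and 0.14. With the stage covariate these medians were 0.00, -0.06 and 0.10, and without the libraries numbered 4 they were 0.01, -0.03 and 0.11, so that the sign for nonsense-mediated decay turned. The 2 members of highest level in each of these lists, pab-1 and let-711, smg-1 and smg-6, and ain-1 and ain-2, had log2 fold changes between -0.08 and 0.13. At an unadjusted p under 0.05 none of these 44 genes stood out by edgeR, and DESeq2 called none either.

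One gene of the small RNA pathways rose. ppw-2 (chromosome I, 5158511 to 5162232) encodes an Argonaute, the class of protein that carries small guide RNAs, and is also known as wago-3. It had 27.5, 27.9, 17.8 and 26.8 CPM in the double mutant, against 14.9, 12.5, 13.6 and 16.4 CPM in WT. Library 4 of the double mutant was well below the other three but still above all WT libraries. The log2 fold change was 0.80 ± 0.16 (edgeR adjusted p = 0.0456), 0.94 with the stage covariate and 0.91 without the libraries numbered 4 (adjusted p = 0.0137). With 1 library left out the call held only without double mutant library 4, and the other 7 fits gave adjusted p-values of up to 0.211. The edc-3 mutant had 25.3 ± 4.34 CPM and the edc-4 mutant 14.1 ± 1.73 CPM (SD, n = 4 each).

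The other 35 tested small RNA genes did not pass. The list of 38 had 36 tested genes with a median log2 fold change of 0.22, which was -0.02 with the stage covariate and 0.00 without the libraries numbered 4, and its summed level overlapped between the groups, with 2913 to 3338 CPM in the double mutant and 2093 to 3130 CPM in WT. The mutator genes mut-2 and mut-7, named after their values were seen, had 0.59 ± 0.20 and 0.56 ± 0.20 (edgeR adjusted p = 0.356 and 0.372). The germ granule list, 17 genes, had no call and a median of 0.19, which was -0.10 with the stage covariate and -0.07 without the libraries numbered 4.

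The gene of greatest fall was lmd-1 (WBGene00009665, chromosome I, 8609921 to 8611066), named for a LysM domain. It had 0.545, 0.628, 0.608 and 1.01 CPM in the double mutant, against 19.4, 21.1, 17.6 and 20.6 CPM in WT. The level in the double mutant was 3.54% of WT (log2 fold change -4.80 ± 0.25, edgeR adjusted p = 1.58e-09), and the call held in all fits without 1 library. The edc-3 mutant had 0.442 ± 0.204 CPM and the edc-4 mutant 23.5 ± 2.59 CPM (SD, n = 4 each), so that both genotypes with edc-3(ok1427) were low. lmd-1 starts 7.796 kb downstream of the start of edc-3 and overlaps F43G9.4 on the other strand.

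No neighbour of lmd-1 was called. Within 20 kb of edc-3, 15 genes were tested, and the 14 other than lmd-1 had log2 fold changes of -0.33 to 0.44. idha-1, which lies between edc-3 and lmd-1 and encodes a subunit of the mitochondrial isocitrate dehydrogenase, had 104.6 CPM on average in the double mutant and 105.3 CPM in WT. F43G9.4 had 26.3 CPM on average in the double mutant and 19.9 CPM in WT, a log2 fold change of 0.40 that did not pass (edgeR adjusted p = 0.384). Around edc-4, 8 genes were tested within 20 kb and only edc-4 was called.

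Called genes lay in runs. Taking called genes no more than 20 kb apart, 20 of the 35 fell into 4 runs, a pair on chromosome I and a pair on chromosome II. Genes of a run are not independent observations. Levels in the single mutants are given beside those of the double mutant and WT, and all 3 mutants were set against the same WT libraries.

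The first run on chromosome I (2485861 to 2506259) held eif-3.I, ddx-10 and Y23H5B.5, which follow each other on the plus strand. eif-3.I encodes a subunit of translation initiation factor eIF3. It had 367, 410.3, 334 and 405 CPM in the double mutant, against 238, 128, 213 and 221 CPM in WT, and all double mutant libraries were above all WT libraries (0.92 ± 0.15, edgeR adjusted p = 0.00760). ddx-10, a DEAD-box RNA helicase gene, had 391, 409, 352 and 391 CPM in the double mutant, against 227, 121, 193 and 221 CPM in WT (1.02 ± 0.15, adjusted p = 0.00420). Y23H5B.5 had 256, 271, 259.5 and 265 CPM in the double mutant, against 169.8, 105, 143 and 174 CPM in WT (0.83 ± 0.12, adjusted p = 0.00385).

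WT library 3 was the lowest for all 3 genes, and each call held with any 1 library left out, WT library 3 included. For eif-3.I the edc-3 and edc-4 mutants had 373 ± 30.3 and 399.9 ± 33.1 CPM (SD, n = 4 each), for ddx-10 they had 357 ± 39.5 and 397 ± 32.2 CPM, and for Y23H5B.5 they had 259 ± 15.0 and 250.5 ± 6.78 CPM. All 3 mutants thus stood at about the same level, above WT. Y74C10AR.2, just upstream, had 24.6, 26.7, 19.8 and 23.2 CPM in the double mutant, against 14.1, 5.16, 12.4 and 16.2 CPM in WT, which did not pass by edgeR (0.98 ± 0.25, adjusted p = 0.195) but did by DESeq2. The other 4 tested genes within 20 kb had log2 fold changes of -0.27 to 0.37. No other of the 39 tested translation factor genes was called, and their median was 0.14.

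The second run on chromosome I (12041035 to 12045200) was the gene F58D5.5 with the small nucleolar RNA genes F58D5.11 and F58D5.12, which lie inside it on the same strand. F58D5.5 had 232, 227, 127 and 208 CPM in the double mutant, against 102, 87.7, 82.4 and 81.5 CPM in WT. Library 4 of the double mutant was the lowest of its group and still above WT. The log2 fold change was 1.17 ± 0.18 (edgeR adjusted p = 0.00558), and it held with any 1 library left out. F58D5.11 and F58D5.12 had 1.26 ± 0.24 (adjusted p = 0.0294) and 1.25 ± 0.21 (adjusted p = 0.0121). Their reads cannot be told from those of the host transcript in these counts, so the 3 genes count as 1 observation. With 1 library left out F58D5.11 was called only without double mutant library 4, and F58D5.12 was lost without double mutant library 2 or WT library 4 or 5. F58D5.13, another transcript in the same place, had 1.02 ± 0.21 and just missed the threshold (adjusted p = 0.0591). F58D5.5 had 119.7 ± 19.3 CPM in the edc-3 mutant and 168 ± 35.6 CPM in the edc-4 mutant (SD, n = 4 each), so that both single mutants averaged between the double mutant and WT. The double mutant differed from neither past the threshold, with adjusted p-values of 0.420 against the edc-3 mutant and 0.9999 against the edc-4 mutant.

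On chromosome II, 4 genes between 6403401 and 6414586 fell. T25D10.1 had 3.69, 4.68, 3.07 and 3.45 CPM in the double mutant, against 7.18, 6.88, 9.37 and 6.75 CPM in WT (-1.02 ± 0.19, edgeR adjusted p = 0.0269). T25D10.4 had 57.97, 54.8, 54.1 and 52.5 CPM in the double mutant, against 84.1, 71.1, 73.1 and 89.9 CPM in WT (-0.54 ± 0.10, adjusted p = 0.0269). Neither gene had an overlap between the groups. The non-coding RNA genes K03H9.10 and K03H9.14 averaged 0.992 and 0.406 CPM in the double mutant and 2.33 and 1.07 CPM in WT. The edc-3 and edc-4 mutants had 3.53 ± 0.740 and 3.39 ± 0.629 CPM of T25D10.1, and 40.2 ± 3.58 and 51.02 ± 2.88 CPM of T25D10.4 (SD, n = 4 each). They averaged 0.973 and 0.862 CPM of K03H9.10, and 0.642 and 0.436 CPM of K03H9.14. In the fits without 1 library T25D10.1 was called in 3 of 8, those without double mutant library 3 or WT library 3 or 5. T25D10.4 was called only without WT library 3 or 4, K03H9.10 only without double mutant library 3 or 5, and K03H9.14 in all but the fit without double mutant library 2. The 11 other tested genes within 20 kb had log2 fold changes of -0.90 to -0.02, all negative, with no call.

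The longest run (chromosome II, 8801130 to 8840257) held 10 called genes in 39.1 kb, 6 lower followed by 4 higher. The first of the lower genes, appg-2, had 3.91, 5.10, 2.16 and 3.66 CPM in the double mutant, against 15.1, 10.2, 12.5 and 14.4 CPM in WT (-1.81 ± 0.29, edgeR adjusted p = 0.00760). pho-13, which belongs to a family of acid phosphatase genes and overlaps the end of appg-2 on the other strand, had 3.89, 3.90, 3.76 and 5.19 CPM in the double mutant, against 14.1, 15.6, 19.9 and 14.3 CPM in WT (-1.93 ± 0.23, adjusted p = 3.08e-04). The level of appg-2 was 28.4% of WT and that of pho-13 was 26.2%, and both calls held with any 1 library left out.

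The yeast homolog of rer-1 returns membrane proteins to the endoplasmic reticulum. rer-1 had 57.7, 56.0, 70.8 and 60.3 CPM in the double mutant, against 138.7, 135.85, 165.7 and 156.4 CPM in WT. The groups did not overlap, and the level was 41.0% of WT (-1.29 ± 0.11, edgeR adjusted p = 2.32e-06). F46C5.9 had 71.1, 65.9, 95.7 and 69.7 CPM in the double mutant, against 135.39, 148, 130.3 and 138 CPM in WT (-0.87 ± 0.15, adjusted p = 0.0121). It was called in 4 of the 8 fits without 1 library, and not without double mutant library 2, 3 or 5 or WT library 5. Its neighbour F07H5.10 averaged 16.5 CPM in the double mutant and 29.8 CPM in WT without passing (adjusted p = 0.286). F46C5.10 and linc-72 were low everywhere, with means of 0.340 and 0.139 CPM in the double mutant and 1.04 and 0.944 CPM in WT. The call of linc-72 held in all 8 fits without 1 library, and that of F46C5.10 only without double mutant library 3 or WT library 2.

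The 4 genes downstream were close to 0 in WT. F46C5.2 had 4.38, 3.85, 3.40 and 3.40 CPM in the double mutant, against 0.0977, 0.105, 0 and 0 CPM in WT. Summed over 4 libraries that was 596 counts in the double mutant and 9 in WT, a depth-scaled ratio of 75.4 with a 95% counting interval of 39.4 to 165.6. nas-25, an astacin-family metalloprotease gene that overlaps F46C5.2 on the other strand, had 65 counts in the double mutant and 1 in WT (ratio 74.0, interval 12.8 to 2966). F46C5.4 had 98 counts in the double mutant and 4 in WT (ratio 27.9, interval 10.6 to 104.4). F46C5.7 overlaps F46C5.4 on the same strand and F46C5.6 on the other, so the counting may have split or shared their reads. F46C5.7 had 33 counts in the double mutant and 0 in WT, at least 12.5-fold higher against a floor of 3 counts over the WT group. These intervals and the floor cover counting error only. The 4 genes had edgeR adjusted p-values of 1.78e-06, 0.00235, 9.43e-05 and 0.0269 in this order. The call of F46C5.7 held only without double mutant library 3 among the fits without 1 library, and the others held in all 8.

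Levels of all 3 mutants are given for 3 genes of this run. F46C5.2 averaged 3.76 ± 0.467 CPM in the double mutant, 4.76 ± 1.35 in the edc-3 mutant, 4.37 ± 1.68 in the edc-4 mutant and 0.0507 ± 0.0586 in WT (SD, n = 4 each). rer-1 averaged 61.2 ± 6.66 CPM in the double mutant, 53.9 ± 2.73 in the edc-3 mutant, 56.4 ± 6.30 in the edc-4 mutant and 149 ± 14.3 in WT. For neither gene did the double mutant differ from a single mutant past the threshold, and the edgeR adjusted p-values of those differences were 0.9 or more. linc-72 averaged 0.139 ± 0.0541 CPM in the double mutant, 0.453 ± 0.288 in the edc-3 mutant, 0.256 ± 0.0740 in the edc-4 mutant and 0.944 ± 0.240 in WT. It was lowest on average in the double mutant, but its difference from the edc-3 mutant, -1.71 ± 0.45, did not pass (edgeR adjusted p = 0.585), and neither single mutant differed from WT past the threshold for linc-72 or F46C5.10. None of the 13 other tested genes within the run or 20 kb of it was called. They had log2 fold changes of -0.86 to 0.32 with a median of -0.15. The edc genes are on chromosome I, so that neither allele lies near this run.

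**Figure D3:**
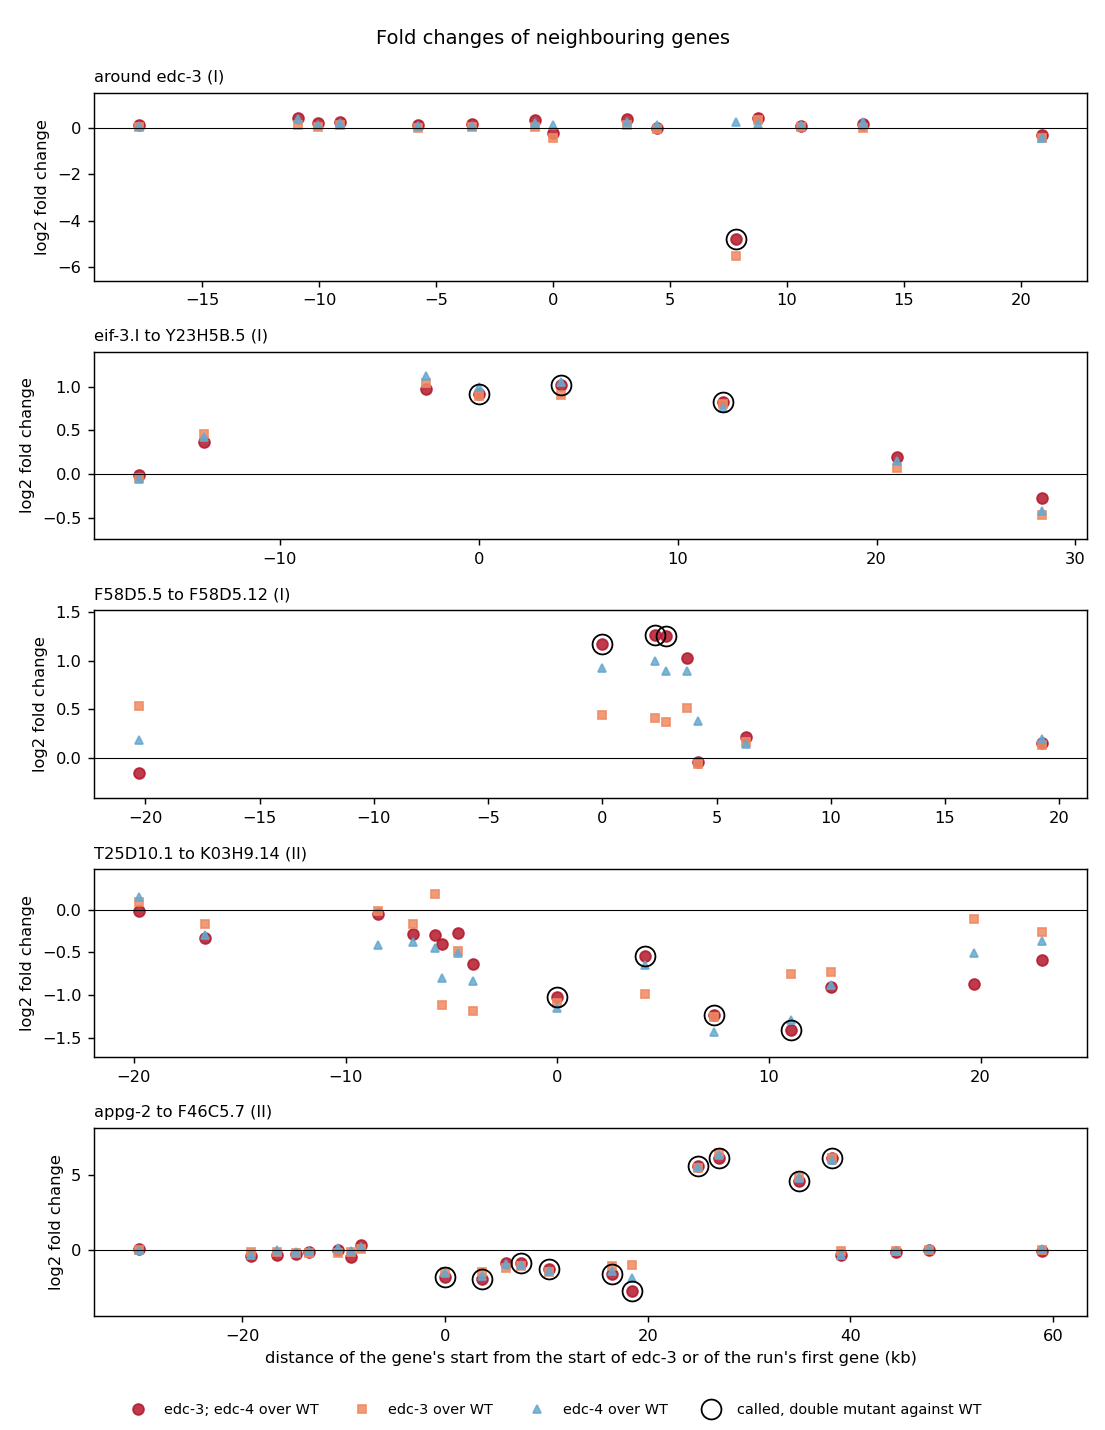
Log2 fold changes over WT of the double mutant (red circles), the edc-3 mutant (orange squares) and the edc-4 mutant (blue triangles) for the tested genes around edc-3 and around the 4 runs, against the distance of each gene's start from the start of edc-3 or of the run's first gene in kb. Black rings mark genes called between the double mutant and WT. Around edc-3 only lmd-1 is called, and it lies near -5 in both genotypes with edc-3(ok1427). In the run from appg-2 to F46C5.7 the called genes of all 3 mutants lie first below and then above 0. The double mutant is lowest for linc-72 at -2.74, against -1.03 in the edc-3 mutant and -1.90 in the edc-4 mutant.

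The other called genes of at least 5 CPM were efn-4, Y65A5A.1, ZC513.7, hmit-1.1 and scrm-4. efn-4, an ephrin, a cell-surface signal of embryonic morphogenesis, had 99.2, 101, 99.3 and 98.4 CPM in the double mutant, against 66.1, 67.3, 59.2 and 80.9 CPM in WT. The double mutant libraries were nearly equal and 1.46-fold above WT (0.54 ± 0.10, edgeR adjusted p = 0.0205), but the call held in only 2 of 8 fits without 1 library, those without double mutant library 4 or WT library 5, and not without the libraries numbered 4 (adjusted p = 0.0856). The edc-3 mutant had 73.7 ± 4.45 CPM and the edc-4 mutant 96.8 ± 6.23 CPM (SD, n = 4 each). Y65A5A.1 had 63.9, 60.9, 69.7 and 62.7 CPM in the double mutant, against 37.3, 35.4, 36.8 and 45.9 CPM in WT (0.73 ± 0.10, adjusted p = 0.00235), and held in all 8 fits. Its single mutant means of 44.9 ± 3.05 CPM (edc-3) and 51.98 ± 3.55 CPM (edc-4) were between the double mutant and WT.

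ZC513.7, a pseudogene that overlaps algn-12 on the other strand, had 289, 292, 209 and 288 CPM in the double mutant, against 163, 144, 174 and 174 CPM in WT (0.72 ± 0.13, edgeR adjusted p = 0.0269). Only without double mutant library 4, the lowest of its group, was it called among the fits without 1 library, and without knowing the strand setting of the counting its reads cannot be told from those of algn-12. hmit-1.1 encodes a myo-inositol transporter that responds to high salt, and it had 3.17, 4.21, 2.16 and 2.99 CPM in the double mutant, against 9.06, 7.24, 11.2 and 7.48 CPM in WT (-1.48 ± 0.28, adjusted p = 0.0294). The call held in 3 of 8 fits without 1 library, those without double mutant library 3 or WT library 3 or 5, and not without the libraries numbered 4 (adjusted p = 0.204). The 10 other genes of the osmotic list did not pass, among them gpdh-1 with -0.64 ± 0.21 (adjusted p = 0.356).

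scrm-4, of the phospholipid scramblase family, had 3.32, 2.75, 3.43 and 2.102 CPM in the double mutant, against 4.67, 12.8, 5.96 and 6.02 CPM in WT (-1.35 ± 0.26, edgeR adjusted p = 0.0375). WT library 3 was far above the others, and the call held in 1 of 8 fits, the one without WT library 2. Leaving out WT library 3 gave the log2 fold change closest to 0, -0.95. At lower levels, pals-26, of a gene family with largely unknown biochemical function, had 3.27, 3.32, 2.99 and 4.89 CPM in the double mutant, against 1.73, 1.47, 1.89 and 1.39 CPM in WT (1.16 ± 0.21, adjusted p = 0.0264), and no other of the 21 tested pals genes was called. B0563.8 rose on the X chromosome (1.23 ± 0.24, adjusted p = 0.0296), with 4.10 ± 0.963 CPM in the double mutant and 1.74 ± 0.226 CPM in WT (SD, n = 4 each). The call of pals-26 held in 3 of 8 fits without 1 library, those without double mutant library 3 or 4 or WT library 4, and that of B0563.8 in 1, the one without double mutant library 3. The remaining called genes of under 1 CPM, Y47D3A.13 and Y102A5C.36, had 1.46 ± 0.26 (adjusted p = 0.0183) and -2.02 ± 0.29 (adjusted p = 0.00273). Y102A5C.36 held in all 8 fits, and Y47D3A.13 only without double mutant library 3 or WT library 3.

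**Figure D4:**
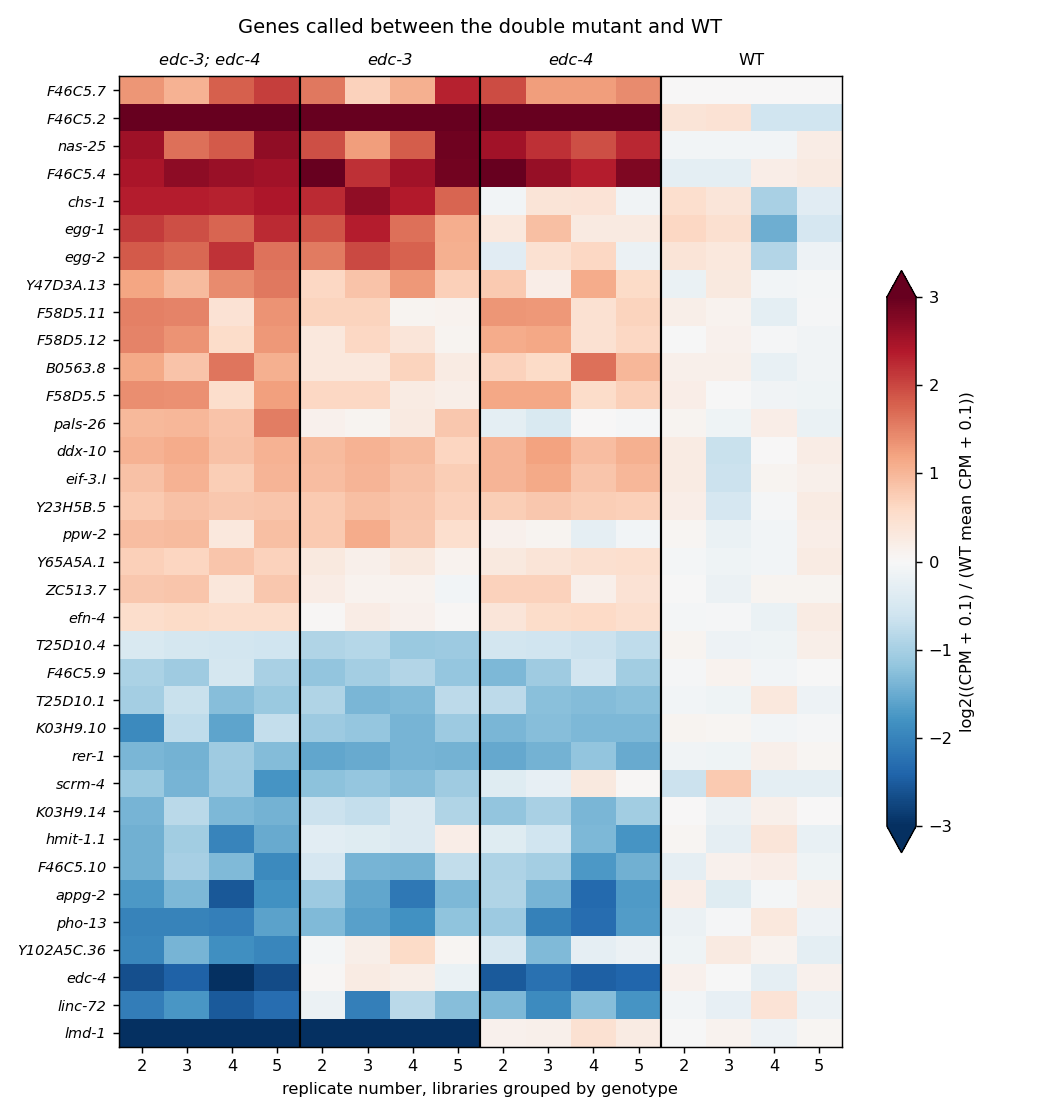
Level of each of the 35 called genes in all 16 libraries as log2 of (CPM + 0.1) over (mean WT CPM + 0.1), ordered by log2 fold change, with the double mutant, the edc-3 mutant, the edc-4 mutant and WT from left to right and replicates 2 to 5 within each. Red is higher and blue lower than the WT mean, and colours end at 3 and -3. chs-1, egg-1 and egg-2 are red in the double mutant and the edc-3 mutant, lmd-1 is blue in the same genotypes, edc-4 is blue in the double mutant and the edc-4 mutant, and F46C5.2 and rer-1 have 1 colour in all 3 mutants.

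The double mutant was then set directly against each single mutant. Against the edc-3 mutant 6 genes (0.0355%) passed, all lower in the double mutant, and among the 35 called genes these were edc-4 (-2.76 ± 0.14) and Y102A5C.36 (-2.23 ± 0.29, edgeR adjusted p = 0.00176). Y102A5C.36 had 0.322, 0.523, 0.359 and 0.320 CPM in the double mutant, against 1.47, 1.75, 2.36 and 1.61 CPM in the edc-3 mutant. Against the edc-4 mutant 5 genes (0.0296%) passed, 3 higher (0.0178%) and 2 lower (0.0118%), and among the 35 these were chs-1 (2.198 ± 0.26, adjusted p = 8.01e-04), egg-2 (1.67 ± 0.27, adjusted p = 0.0266), pals-26 (1.35 ± 0.22, adjusted p = 0.0266) and lmd-1 (-5.06 ± 0.25, adjusted p = 1.44e-09). egg-1 had 1.55 ± 0.34 against the edc-4 mutant and did not pass (adjusted p = 0.419).

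For the eggshell genes no difference between the double mutant and the edc-3 mutant passed. The difference of the double mutant from the edc-3 mutant was 0.08 ± 0.24 for chs-1, 0.20 ± 0.33 for egg-1 and 0.23 ± 0.26 for egg-2, all with edgeR adjusted p-values above 0.9. The standard errors do not show that the genotypes were equal. For ppw-2 the difference was -0.02 ± 0.16, and for cgh-1 the log2 fold changes over WT were 0.99 in the double mutant, 0.81 in the edc-3 mutant and 0.39 in the edc-4 mutant.

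The interaction, the double mutant minus both single mutants plus WT on the log2 scale, is 0 where the differences of the single mutants from WT add up to that of the double mutant. Since each genotype was 1 strain and all were set against the same WT libraries, it does not tell an effect of the alleles from a difference between WT and the mutant strains. It passed for 6 genes (0.0355%), 2 of them positive (0.0118%) and 4 negative (0.0237%), with 5 of the 6 among the 35: F46C5.2 (-6.72 ± 0.60, edgeR adjusted p = 1.32e-05), nas-25 (-5.47 ± 0.94, adjusted p = 0.0449), F46C5.4 (-5.05 ± 0.60, adjusted p = 5.16e-04), rer-1 (1.59 ± 0.15, adjusted p = 2.35e-05) and T25D10.4 (1.09 ± 0.14, adjusted p = 0.00145). All 5 are in the runs on chromosome II. For rer-1 the log2 fold changes over WT were -1.29 in the double mutant, -1.47 in the edc-3 mutant and -1.40 in the edc-4 mutant, and for T25D10.4 they were -0.54, -0.99 and -0.64 in the same order. No eggshell gene passed, with -0.10 ± 0.35 for chs-1 and 0.03 ± 0.38 for egg-2. For F58D5.5 it was -0.19 ± 0.25 and for Y65A5A.1 0.10 ± 0.14, neither past the threshold.

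Several broad lists had medians away from 0 without a called gene, and these medians were closer to 0 when the stage score was taken into account. Of 55 tested early zygotic genes, the first to be transcribed by the embryo, 54 had a positive log2 fold change with a median of 0.50 and none was called. Of 32 muscle genes 30 had a negative one with a median of -0.32, and the medians were -0.24 for 30 neuronal genes and -0.38 for 15 intestinal genes, with no call in any of these lists. Early zygotic and muscle genes define the stage score, so their own change with the covariate is fixed by it. With the stage covariate the medians of neuronal and intestinal genes were 0.08 and -0.01, and without the libraries numbered 4 they were -0.03 and -0.12.

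Genes of growth and division had no call either. All 45 cell cycle genes had positive values with a median of 0.23, which was -0.01 with the covariate and 0.03 without the libraries numbered 4, and 77 of 80 tested ribosomal protein genes had negative values with a median of -0.20, which became 0.00 and -0.07. The proteasome list had a median of 0.28, and 0.02 with the covariate. The histone list had 0.13, and -0.13 with the covariate and -0.10 without the libraries numbered 4, so that its sign turned. The 110 tested cuticle collagens had -0.18, and 0.10 with the covariate and 0.02 without the libraries numbered 4. At an unadjusted p under 0.05, where 5.67% of all tested genes were higher and 5.78% lower, edgeR had 14 of 55 early zygotic, 3 of 45 cell cycle, 1 of 33 proteasome, 3 of 59 histone, 1 of 15 intestinal and 4 of 110 collagen genes higher. Lower were 1 of 32 muscle, 2 of 30 neuronal, 1 of 15 intestinal, 5 of 80 ribosomal and 16 of 110 collagen genes. DESeq2 called 1 early zygotic gene and 1 collagen gene higher and none of the other lists in this and the preceding paragraph. Across all 16880 genes, the slope of each gene on the stage score within the single mutants and its log2 fold change in the double mutant had a Spearman rho of 0.613 and a Pearson r of 0.506. This is a description across genes, which share libraries and are not independent replicates.

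Only the mitochondrial genome and heat shock lists had a median at least 0.2 from 0 on the same side in all 3 fits. The 12 tested genes of the mitochondrial genome had a median of -0.45 with 11 negative values, -0.43 with the covariate and -0.30 without the libraries numbered 4. ctb-1, cytochrome b, had 829, 733, 1090 and 916 CPM in the double mutant, against 709, 915, 2203 and 1764 CPM in WT. WT libraries 4 and 5 were high and the groups overlapped. None of the 12 was called by edgeR or DESeq2. By edgeR, 3 were lower at an unadjusted p under 0.05, as were 5.78% of all tested genes. The exact two-sided permutation test of the summed level gave p = 0.371. The 21 heat shock genes had a median of 0.23, 0.21 with the covariate and 0.25 without the libraries numbered 4. None of the 21 was called by edgeR or DESeq2. By edgeR, 3 were higher at an unadjusted p under 0.05, as were 5.67% of all tested genes. The most abundant, hsp-90 and hsp-1, had log2 fold changes of 0.03 and 0.08. By library, the heat shock list's median log2 deviation from the WT mean was 0.08, -0.05, 0.23 and 0.45 in the double mutant. In WT it was 0.11, -0.28, 0.51 and -0.04, so the groups overlapped. The list's median log2 fold change over WT was 0.23 in the edc-3 mutant and -0.11 in the edc-4 mutant.

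**Figure D5:**
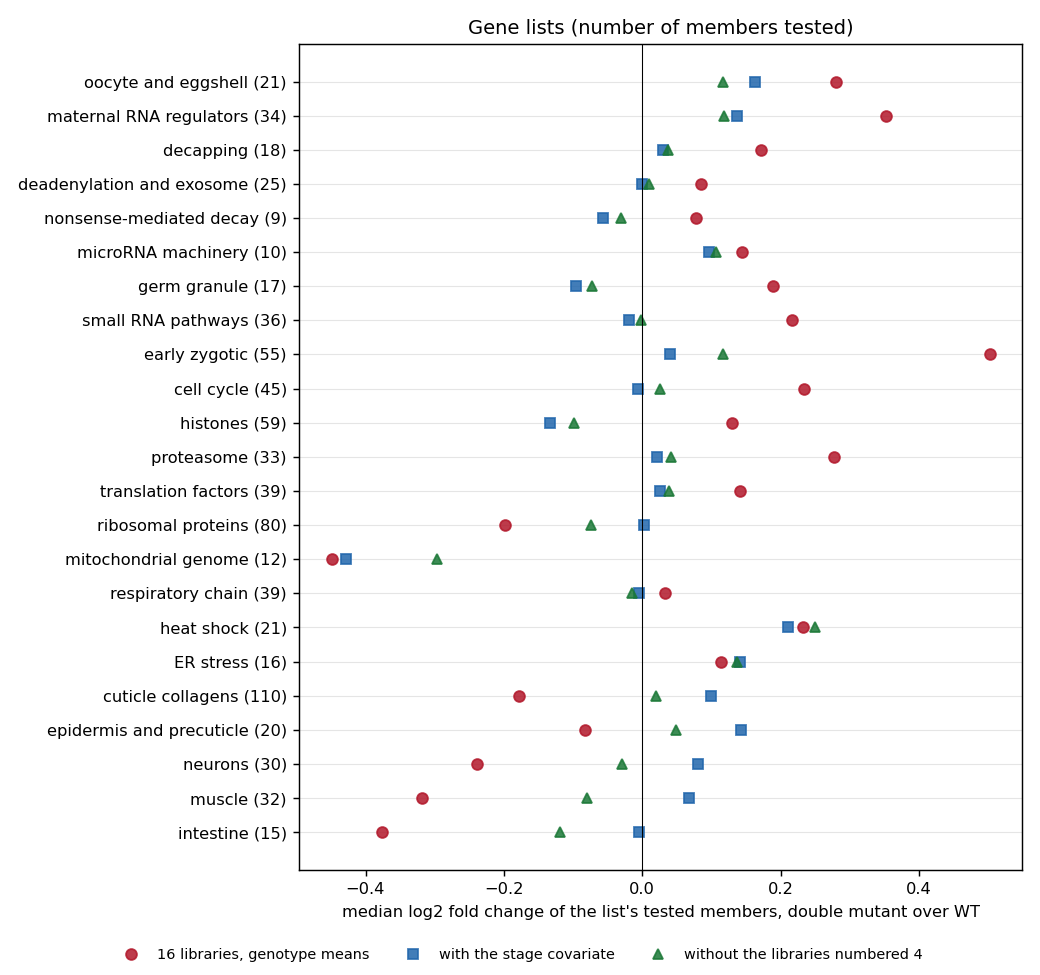
Median log2 fold change of the double mutant over WT for 23 gene lists, with the number of tested members in brackets, in the fit of all 16 libraries (red circles), with the stage covariate (blue squares) and without the libraries numbered 4 (green triangles). Early zygotic, cell cycle, proteasome, muscle, neuronal and intestinal lists move towards 0 under both alternatives, while the mitochondrial genome and heat shock lists stay on their side. The eggshell, maternal RNA regulator, microRNA machinery and ER stress lists, among others, keep a positive median in every fit.

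Another set of genes did not pass the main test but passed both by DESeq2 and with the stage covariate, averaged at least 5 CPM and had groups without overlap. There were 19, 18 higher and 1 lower, with edgeR adjusted p-values of 0.0591 to 0.262 in the main test. rskn-1 (chromosome I, 8573852 to 8580205), a homolog of ribosomal S6 kinases, lies just outside the 20 kb window around edc-3. It had 57.7, 57.5, 46.8 and 53.7 CPM in the double mutant, against 38.6, 37.3, 24.1 and 22.7 CPM in WT (0.81 ± 0.17, adjusted p = 0.0624). The mean was 51.9 ± 9.137 CPM in the edc-3 mutant and 32.8 ± 3.29 CPM in the edc-4 mutant (SD, n = 4 each). hlh-14, a proneural transcription factor, had 27.4, 27.03, 25.96 and 28.8 CPM in the double mutant, against 19.3, 18.4, 14.5 and 20.8 CPM in WT (0.58 ± 0.12, adjusted p = 0.0715). Both single mutants averaged between the groups, with 22.2 ± 1.63 CPM in the edc-3 mutant and 21.5 ± 2.52 CPM in the edc-4 mutant. The single lower gene was nhr-132, a nuclear hormone receptor, with 4.04, 4.81, 4.78 and 4.73 CPM in the double mutant, against 6.81, 7.18, 7.02 and 6.14 CPM in WT (-0.56 ± 0.12, adjusted p = 0.0906).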

How the data were processed

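Total RNA of mixed-stage embryos was sequenced from stranded, ribosomal RNA-depleted libraries, per the labels. What the authors deposited is 1 table of whole-number counts, a row for each gene and a column for each library. The submitters' processing notes name Trimmomatic, STAR, HTSeq, edgeR and limma and the build WBcel235. Their versions, and whether the counting used strand, are not stated there. Symbols and positions came from the Ensembl release 115 annotation.

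Counts were analysed with edgeR 4.0.16 in R 4.3.3: filterByExpr (minimum count 10, minimum total 15, 16880 of 46726 genes kept), TMM factors, 1 quasi-likelihood fit of 16 libraries with a mean per genotype, and Benjamini-Hochberg adjustment over all tested genes at 0.05. The biological coefficient of variation was 0.193. The script was tested on simulated data. Log2 levels used a prior count of 2. Intervals of count ratios cover 95%.

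The comparison, gene lists, rules and tests were chosen with earlier results of these data known. Named were the targeted genes, called genes of at least 1 CPM, the top called or most abundant members of each list, the near-threshold genes described in the text, and neighbours within 20 kb. Other names, among them list members that were not called and called genes under 1 CPM, were chosen after their values were seen. Alternatives were DESeq2 1.42.0, other scaling and filters, 8 libraries alone, a stage covariate, a replicate block and left-out libraries. Replicates are described as independent biological ones, and library totals ranged over 34.1 to 52.9 M counts.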

Additional observations from a re-analysis of the deposited data

Results flagged for a closer look

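In 7 groups of 4 libraries, 1 value stood apart from the other three by Dixon's criterion for a single outlying value at the 95% level. Chance flags about 1 in 20 groups, and 78 groups were examined. Among double mutant libraries, library 4 was low for ppw-2 (17.8 CPM) and for ZC513.7 (208.8 CPM), library 5 was high for pho-13 (5.19 CPM) and library 3 was high for K03H9.14 (0.576 CPM). Among WT libraries, library 3 was high for scrm-4 (12.8 CPM), library 4 was high for T25D10.1 (9.37 CPM) and library 5 alone had a count of nas-25 (0.0235 CPM).

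For 5 genes on chromosome II the difference of the double mutant from WT was not the sum of those of the single mutants, by edgeR's test of the interaction. All 3 mutants were set against the same WT strain, so effects of the alleles and differences between strains cannot be told apart. The log2 value of the interaction was -5.47 for nas-25, -6.72 for F46C5.2, -5.05 for F46C5.4, 1.59 for rer-1 and 1.09 for T25D10.4.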

How the results depend on the processing

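The main test called 35 genes, 20 higher and 15 lower. DESeq2 called 113 (81 higher, 32 lower), the stage covariate gave 108 (59 higher, 49 lower) and no filter on low counts gave 65 (47 higher). Leaving out 1 library gave 17 to 29 genes, 10 to 19 higher and 7 to 13 lower, and the lowest count came without double mutant library 2. Genes of the 35 that also passed against the edc-3 mutant numbered 2 in the main test, 8 by DESeq2, 11 with the stage covariate and 2 in each fit without 1 library. Against the edc-4 mutant there were 4, then 8 by DESeq2, 8 without the filter and 2 to 5 with 1 library left out. For the interaction there were 5, then 12 by DESeq2, 10 with the stage covariate, 3 among genes averaging at least 1 CPM and 4 to 5 with 1 library left out. The edc-4 difference was -2.69, -2.67 without the libraries numbered 4 (exact permutation p = 0.1) and -2.78 to -2.58 with 1 library left out (exact p = 0.0571), the smallest p those numbers of libraries allow. The edc-3 difference was -0.31 to -0.16 with 1 library left out. Except for fewer libraries in those fits, the cause of these shifts was not tested. Same-numbered double mutant and WT libraries did not deviate together (r of -0.331 to -0.023), so the numbers were not taken as pairs, and a fit with the replicate block called 36 genes, 30 of them among the 35. Library 4 had the highest stage score in each mutant genotype and the lowest in WT. Its score was -2.77 in the double mutant, -3.73 in the edc-3 mutant, -2.95 in the edc-4 mutant and -5.40 in WT. What the mutant libraries of a number share was not tested. No called gene changed sign under any alternative run.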

Other observations

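The gene C38D9.2, chosen after its values were seen, had the lowest log2 fold change among genes that were not called, -3.03 (edgeR adjusted p = 0.331). It had 3.77, 4.19, 3.37 and 3.27 CPM in double mutant libraries 2, 3, 4 and 5, against 4.13, 109.5, 2.56 and 2.66 CPM in WT libraries 2, 3, 4 and 5. A single WT library held the whole difference. WT library 3 was also the one with the lowest levels of eif-3.I (128 CPM), ddx-10 (121 CPM) and Y23H5B.5 (105 CPM) and the highest level of scrm-4 (12.8 CPM).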
